A study of Homo sapiens with 20 samples.

Results

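K562 cells, an established leukaemia line, in which NME6 had been knocked out and wild-type NME6 cDNA then added back were compared with NME6 knockout cells without the cDNA. The compared libraries were the CMC libraries of the rescued cells (genotype NME6 KO + WT-NME6 cDNA, n = 3) and of the knockout cells (genotype NME6 KO, n = 4). Every RNA in them came from isolated mitochondria and had been treated with 0.5 M CMC. Members were all positions of the mitochondrial chromosome at which the mean deposited value over these 7 libraries was 1 or more. There were 136 of them among 16570 listed positions. The quantity described is the difference of group means, rescued minus knockout, at each of them. The same values are given where useful for the control cells (wild type with a non-targeting sgRNA, n = 4) and for RPUSD4 knockdown cells (n = 3), treated alike. Whether the knockout was a clone or a pool, and which promoter drove the cDNA, was not stated in the labels. Nor do the labels tie replicates to separate cultures, and the p-values then describe the spread of these libraries alone, which may be technical.

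Pseudouridine is an isomer of uridine in which the base is joined to the sugar through carbon. CMC, a carbodiimide, stays bound to pseudouridine after alkaline treatment and makes reverse transcriptase stop or misread there. In mitochondria, pseudouridine is made by dedicated synthases, among them RPUSD4, which modifies 16S rRNA, the RNA of the large ribosomal subunit. NME6 belongs to the nucleoside diphosphate kinases, which pass phosphate between nucleotides, and it is found in mitochondria. Mitochondrial DNA is transcribed from both strands into long precursors, from which rRNAs, tRNAs and mRNAs for subunits of respiratory complexes I, III, IV and V are cut. The value of a position, called its level here, was taken to be the percentage of altered reads with CMC less that without, in points, so it can be negative. No bases came with the values, so a level is a level at a position and not a measured pseudouridine. No sequence of the mitochondrial chromosome was used here.

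The 7 libraries were not alike. An exact 0 stood at 27.7 to 33.5% of all listed positions in the rescued libraries and at 42.7 to 68.2% in the knockout libraries. Depth per library is unknown. Knockout replicate 1 stood apart: it was the lowest of the 4 knockout libraries at 63 of 136 members, and at 35 of 56 members in mRNAs. The mean over all listed positions was 0.111 ± 0.0121 (SD, n = 3) in rescued and 0.143 ± 0.0386 (SD, n = 4) in knockout libraries. Within each group, pairs of libraries shared 101 to 179 identical negative values, and no rescued and knockout pair shared any (tolerance 1e-09). One untreated profile per group therefore appears to have been subtracted, and a difference between the untreated profiles cannot be told apart from one between the CMC libraries. The rescued samples were also registered apart from the others, so any batch of theirs and the genotype cannot be told apart.

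Rescued cells differed from knockout cells at 9 of the 136 members: 6 were higher and 3 lower (limma, Benjamini-Hochberg adjusted p below 0.05 over 188 tested positions). These 9 were also all the calls among the 188, where 4.79% were called, 3.19% as higher and 1.6% as lower. The higher ones were 3 neighbouring bases of 16S rRNA and the 3 bases of a single codon in COX1, the mRNA of the catalytic subunit of cytochrome c oxidase (complex IV). The lower ones were a pair of neighbouring bases further along COX1 and 1 base of CYTB, the mRNA of cytochrome b (complex III). No member in 12S rRNA, in a tRNA, in a complex I or complex V mRNA or outside genes was called. Positions 3065 and 3066 (16S rRNA), 6042 (COX1) and 15395 (CYTB) were tested only through their mean over the 7 libraries compared. Their mean over all 14 lay below 1, so these calls hang on a filter that used the compared values. Testing only positions with a 14-library mean of 1 or more left 5 calls, all among the 9. Of these 5, positions 6043 and 6044 (COX1) had means below 1 in knockout, control and knockdown cells alike. They passed this filter only through the rescued libraries, so their calls hang on the compared values too. When each library was divided by its mean over the untested positions, 3 calls were left, all 3 of them the higher ones in COX1.

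Most members lay lower in the rescued cells: 100 were lower and 36 higher, with a median difference of −0.68. Over all tested positions, which include the members, it was −0.44. Members were chosen by the mean of the compared libraries, so a high value in 1 knockout library can both admit a position and make it lower. Among the 41 members with most of their summed level in 1 library, 36 were lower and 5 higher. The other 95 had 64 lower and 31 higher, with a median of −0.29. Tested positions that were not members had 29 lower and 16 higher, with a median of −0.20. The median over the members was −0.33 with libraries scaled as above, −0.25 without knockout replicate 4 and −0.32 without knockout replicate 3. The rescued and knockout libraries did not overlap at 26 members, 12 higher and 14 lower in rescued cells. Over all 188 tested positions, 18.6% did not overlap, 8.51% higher and 10.1% lower. Without knockout replicate 1 the count was 52, with 16 higher and 36 lower, and with libraries scaled it was 28, with 18 higher and 10 lower, so the balance of directions turned with the scaling. At 10 members the rescued libraries lay above all 11 other CMC libraries, and at 2 members below all of them, while over all 188 tested positions the counts were 10 and 5.

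**Figure D1:**
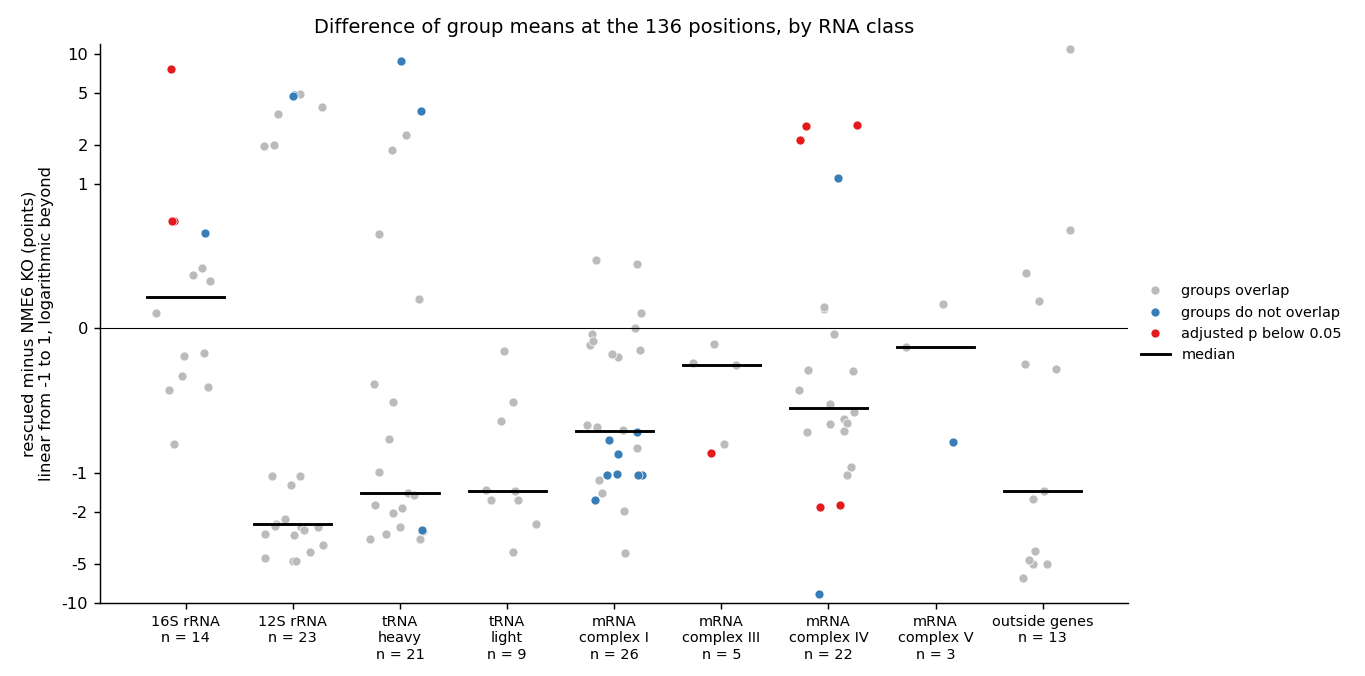
Each point is 1 of the 136 positions, placed by RNA class (horizontal) and by the difference of group means in points (vertical, linear from −1 to 1 and logarithmic beyond), with the class median as a bar. The 3 called 16S rRNA positions and 3 of the 5 called complex IV positions lie above 0. In every class but 16S rRNA most points lie below it.

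The highest level among the rRNA members was in 16S rRNA (gene RNR2), at base 1397 counted from the start of the gene, chromosome position 3067 on the RefSeq GRCh38 annotation. In the rescued libraries it was 22.1, 22.9 and 23.3. In the knockout libraries it was 17.5, 15.4, 14.3 and 13.3. All rescued libraries thus lay above every knockout library. The control libraries gave 14.1, 14.9, 13.8 and 15.8, like the knockout, and the RPUSD4 knockdown libraries gave 9.25, 10.2 and 9.30, the lowest of all groups. The rescued mean was 7.63 points above the knockout mean (SE 0.936, 95% interval 5.57 to 9.68, limma adjusted p = 4.282e-04). It was also 8.11 points above the control mean (limma adjusted p = 3.812e-04). In that comparison 5.32% of the tested positions were called. The exact two-sided permutation test over the 7 libraries gave p = 0.0571, the smallest that 3 against 4 libraries allow. The difference stayed positive with libraries scaled, at 11.95, but was not called there (limma adjusted p = 0.125).

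The next 2 bases towards the start of 16S rRNA were called as well. At base 1396 the level was 1.57, 1.84 and 1.45 in rescued libraries and 0.961, 0.844, 0.718 and 0.974 in knockout libraries (difference 0.746, SE 0.185, limma adjusted p = 0.0388). At base 1395 it was 1.35, 1.64 and 1.53 in rescued libraries and 0.897, 0.739, 0.574 and 0.846 in knockout libraries (difference 0.742, SE 0.166, limma adjusted p = 0.0235). The groups did not overlap at either base. On the other side of the peak the level dropped at once, to 0.069 in rescued and 0.057 in knockout cells at base 1398. Taken as a percentage of the level at base 1397 in the same library, base 1395 held 6.61 ± 0.517 (SD, n = 3) in rescued and 5.07 ± 0.979 (SD, n = 4) in knockout libraries, and base 1396 held 7.12 ± 0.876 and 5.83 ± 1.02. Those percentages overlapped between the groups at both bases. Both calls were lost without some single libraries: at base 1395 without rescued replicate 2 (limma adjusted p = 0.0821) or 3 (0.0634), and at base 1396 without knockout replicate 3 (0.0572), or rescued replicate 1 (0.0795), 2 (0.156) or 3 (0.0524). They were lost with libraries scaled too (0.0717 for each), and under 8 and 11 of 21 alternatives in all.

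The other 11 of the 14 members in 16S rRNA were not called. At base 945, the remaining one whose groups did not overlap (described after its values were seen), rescued libraries gave 1.63, 1.66 and 1.54 and knockout libraries 0.244, 1.09, 1.17 and 1.30, with a limma adjusted p of 0.284. Over the class, 8 members were higher and 6 lower, and the median difference was 0.22, which turned to −0.063 without knockout replicate 1 and to −0.022 without rescued replicate 3. At 4 of the 14 every rescued library lay above every knockout library and at none below, where 8.51% of all tested positions were higher without overlap. Bases 944, 946 and 947, tested but with means just under 1, were also higher without overlap, with differences of 0.331, 0.415 and 0.377 (limma adjusted p = 0.542 for each). The calls of the class came from 1 run of 3 bases.

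**Figure D2:**
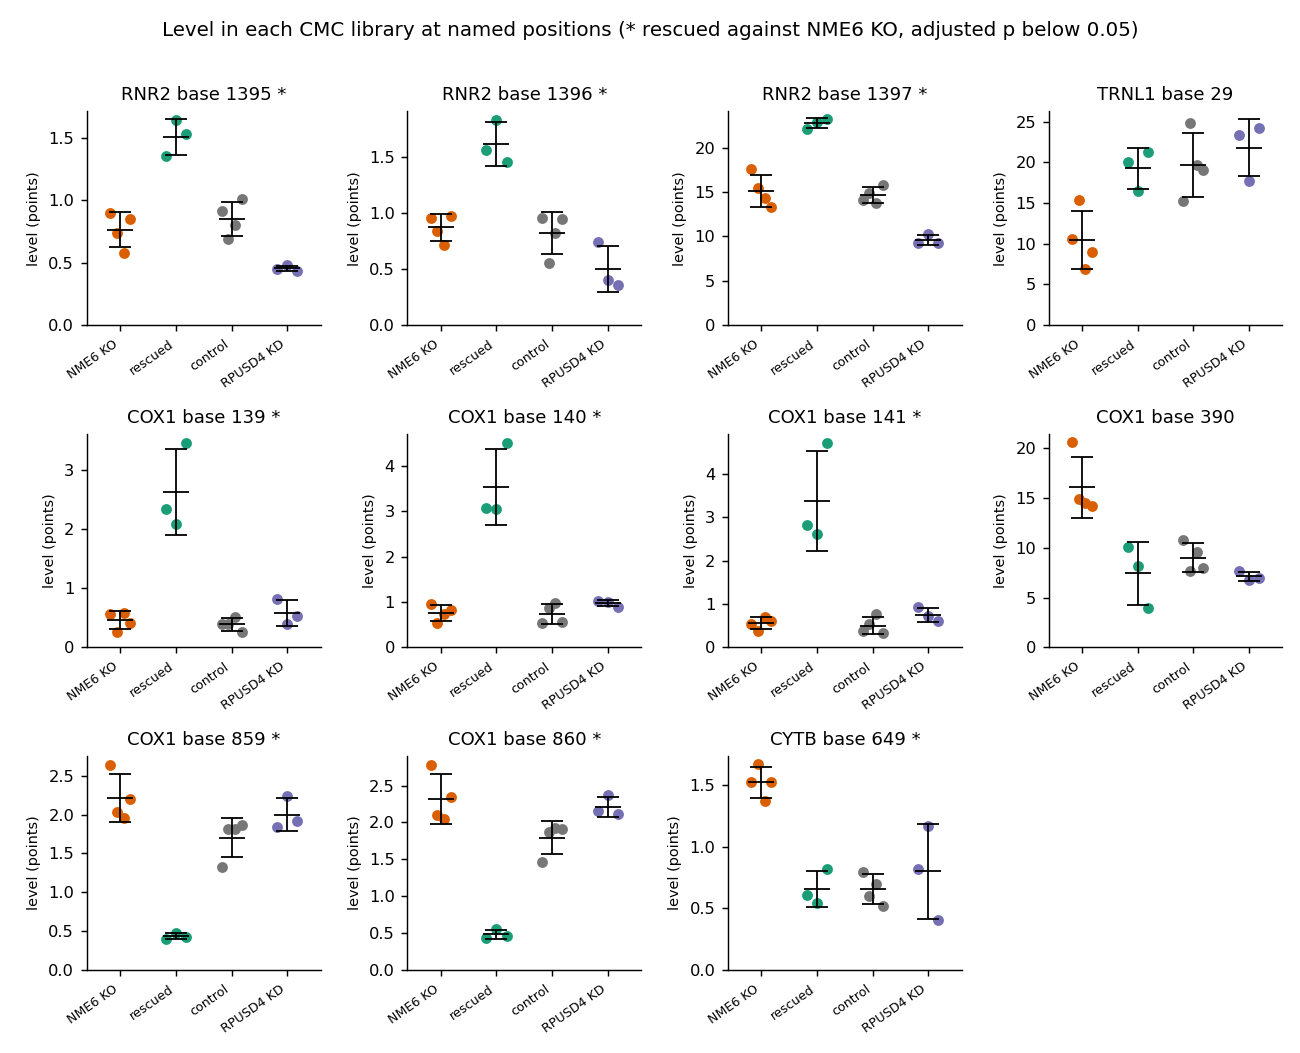
Levels in points (vertical) of each CMC library at 11 positions, by group (horizontal), with the mean and SD as bars; a star marks the 9 positions called between rescued and knockout cells. At the starred positions the 3 rescued libraries sit apart from the 4 knockout libraries, while at RNR2 base 1397 the knockout and control libraries lie side by side.

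In COX1 the positions that moved did so in opposite directions at separate places. The mRNA held 19 members, more than any other mRNA, of which 5 were higher and 14 lower in rescued cells. Bases 139, 140 and 141 (positions 6042, 6043 and 6044), the 3 places of codon 47, were higher. At base 140 rescued libraries gave 3.06, 3.05 and 4.50 and knockout libraries 0.961, 0.541, 0.729 and 0.814. The rescued libraries lay above every knockout, control and knockdown library. The difference was 2.78 (SE 0.341, 95% interval 2.03 to 3.53, limma adjusted p = 4.282e-04).

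The bases on either side of it in the codon gave the same picture. At base 139 the levels were 2.34, 2.10 and 3.46 in rescued and 0.569, 0.257, 0.589 and 0.421 in knockout libraries (difference 2.17, SE 0.288, limma adjusted p = 6.026e-04). At base 141 they were 2.83, 2.61 and 4.71 against 0.546, 0.367, 0.693 and 0.616 (difference 2.82, SE 0.412, limma adjusted p = 0.00111). Rescued replicate 3 was the highest library at all 3 bases. The control means, 0.389, 0.728 and 0.498 in the order of the bases, were close to the knockout means of 0.459, 0.761 and 0.556, and at base 140 the rescued mean exceeded the control mean by 2.81 (limma adjusted p = 3.812e-04). The calls held with each single library left out and with libraries scaled. They did not hold when only the 7 libraries were fitted (limma adjusted p of 0.0531, 0.0564 and 0.0728), and bases 140 and 141 were not called with no level filter (0.431 and 0.111).

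The rise did not end at the codon. Bases 144, 145 and 146 of COX1, which were not members because their means lay below 1, had rescued means of 1.05, 1.12 and 0.662 and knockout means of 0.054, 0.097 and 0.0080. These values were noticed in the profile around base 141 and are given as a description. Further along, at base 193 (position 6096, the member nearest the minimum of 1, also described after its values were seen), rescued libraries gave 1.09, 1.08 and 2.76 and knockout libraries 0.310, 0.588, 0.5998 and 0.587. The groups did not overlap there, but the difference of 1.12 was not called (SE 0.368, limma adjusted p = 0.106).

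At bases 859 and 860 of COX1 (positions 6762 and 6763), the first and second place of codon 287, the rescued cells were lower. Base 859 gave 0.4005, 0.475 and 0.423 in rescued libraries and 2.64, 2.04, 1.96 and 2.21 in knockout libraries. Base 860 gave 0.431, 0.549 and 0.460 against 2.78, 2.10, 2.04 and 2.35. The rescued libraries lay below all 11 other CMC libraries at both, and these are the 2 members where that was so. The differences were −1.78 (SE 0.284, limma adjusted p = 0.00202) and −1.84 (SE 0.302, limma adjusted p = 0.00216). The rescued mean was 19.6% of the knockout mean at base 859 and 20.7% at base 860. Against the control means of 1.70 and 1.79 the rescued means were lower as well, each with a limma adjusted p of 0.0271. With libraries scaled neither was called against the knockout (limma adjusted p of 0.102 and 0.113), although the differences kept their size, at −1.87 and −1.93. Nor were they called with only the 7 libraries fitted (0.0510 for each) or with no level filter (0.864 and 0.914).

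The highest level in any mRNA was at base 390 of COX1 (position 6293), the third place of codon 130. Rescued libraries gave 10.1, 8.15 and 3.99, and knockout libraries 20.6, 14.9, 14.5 and 14.2. The groups did not overlap, with every knockout library above every rescued library. The control libraries, at 10.8, 7.65, 9.56 and 8.01, and the knockdown libraries, at 7.66, 6.72 and 6.98, all lay below the knockout libraries. The difference from the knockout was −8.63 (SE 3.37, 95% interval −16.0 to −1.25) and was not called (limma adjusted p = 0.186). The call at this base turned on how the spread is modelled: it passed without the trend of spread on level (limma adjusted p = 0.00915) and with the robust fit (0.0114). It passed under 9 of 24 alternatives in all. Of the other members in COX1, bases 199 and 829 differed by 0.137 and −0.038, and the remaining 10 were lower in rescued cells, with differences of −0.962 to −0.290.

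**Figure D3:**
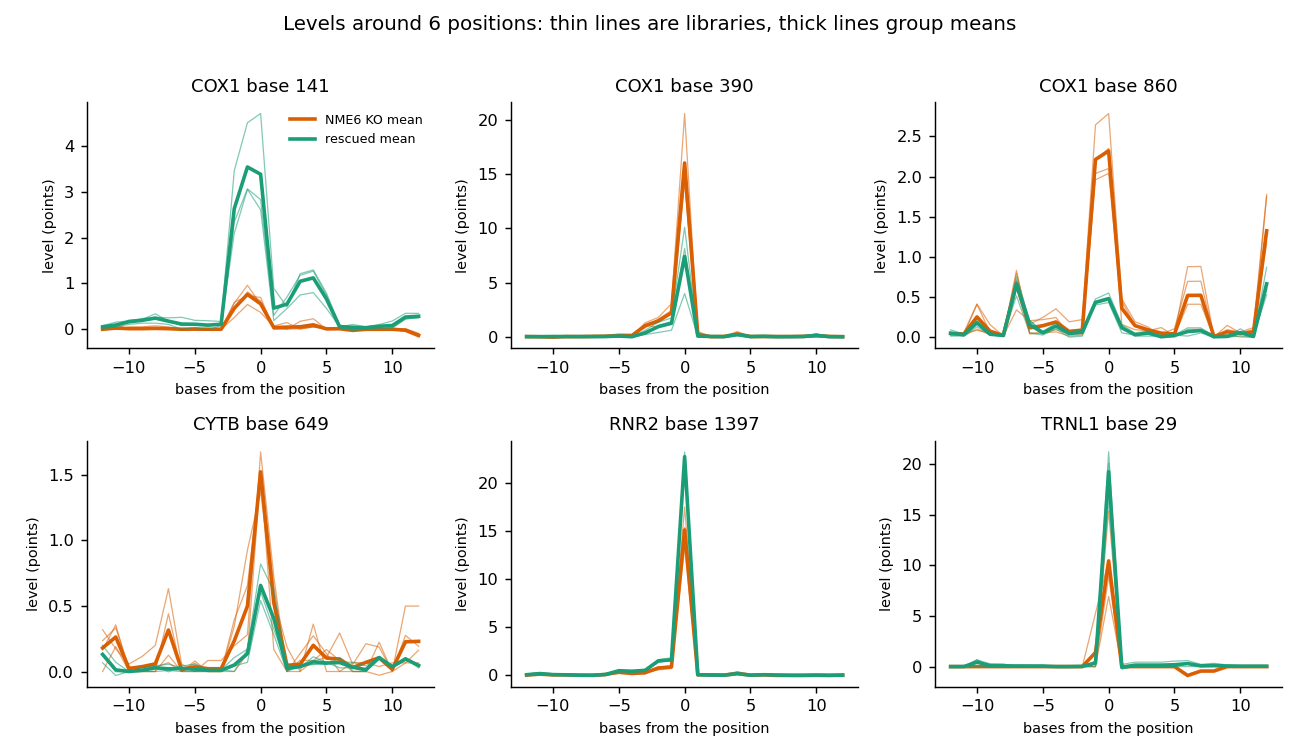
Level in points (vertical) in the 12 bases on either side of 6 positions (horizontal, bases from the position), with thin lines for the libraries and thick lines for the means of rescued and NME6 KO cells. Around COX1 base 141 the rescued profile shows a plateau of 3 bases and a lower hump after it, while COX1 base 390, RNR2 base 1397 and TRNL1 base 29 are narrow peaks.

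**Figure D4:**
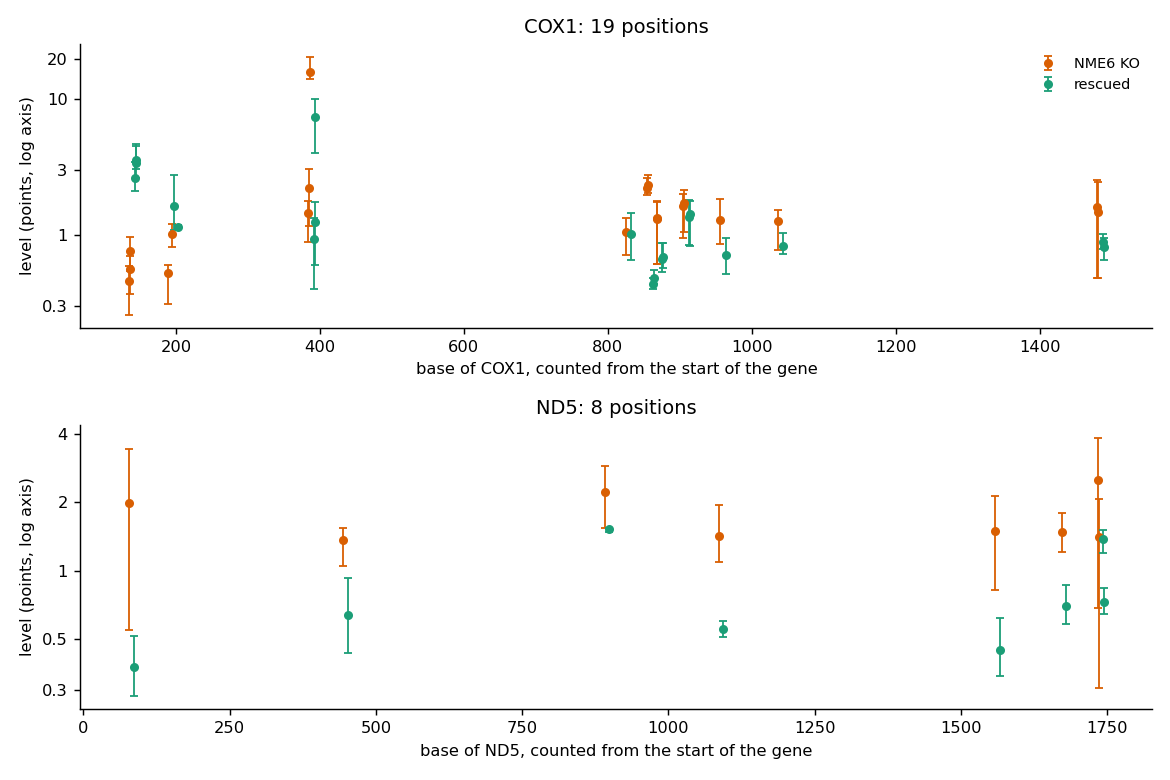
Group means in points (vertical, log axis) along COX1 and ND5 (horizontal, base of the gene), with bars from the lowest to the highest library and the groups drawn slightly apart. In COX1 the rescued cells are above the knockout at bases 139 to 141 and below it at bases 390, 859 and 860, and in ND5 all 8 rescued means are the lower ones.

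CYTB held the remaining call. At base 649 (position 15395), the first place of codon 217, rescued libraries gave 0.609, 0.541 and 0.821 and knockout libraries 1.52, 1.68, 1.37 and 1.52. The control mean of 0.654 stood beside the rescued mean of 0.657. The difference between rescued and knockout cells was −0.866 (SE 0.201, limma adjusted p = 0.0271). It was not called without rescued replicate 1 (0.0795) or 2 (0.0821), or with libraries scaled (0.252), and under 8 of 21 alternatives in all. The other 4 members of CYTB were lower too, with differences of −0.800 to −0.109, and the groups overlapped at each. With scaling, the median over the 5 turned from −0.25 to 0.10, and without knockout replicate 2 it was 0.010.

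The mRNAs of complex I, the NADH dehydrogenase, held 26 members in ND1, ND2, ND3, ND4, ND5 and ND6. Of these, 22 were lower in rescued cells and none was called. Their median difference was −0.71, and it was −0.55 with libraries scaled. At 8 of the 26 every rescued library lay below every knockout library, and at none above. Over all tested positions, 10.1% were lower without overlap.

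ND5 (8 members) had its members all on the lower side, with 5 of them free of overlap. Over all 188 tested positions, 129 were lower and 10.1% were lower without overlap. The median level of the ND5 members was 0.67 in rescued and 1.49 in knockout cells. At base 1676 (position 14012, described after its values were seen) rescued libraries gave 0.657, 0.867 and 0.581 and knockout libraries 1.34, 1.20, 1.57 and 1.80 (difference −0.775, limma adjusted p = 0.0568). The largest difference in ND5 was at base 82 (position 12418), with 0.333, 0.281 and 0.516 against 3.42, 1.25, 0.5501 and 2.73 (difference −1.61, limma adjusted p = 0.164). There knockout replicate 3 lay close to the rescued libraries and the other 3 far above. The count of 5 became 8 without knockout replicate 1 and 2 with libraries scaled.

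Single members of ND1, ND4 and ND2 were also lower in rescued cells but were not called. At base 164 of ND1 (position 3470) rescued libraries gave 0.243, 0.908 and 0.389 and knockout libraries 2.15, 1.497, 1.52 and 1.01 (difference −1.03, limma adjusted p = 0.0509). It passed without knockout replicate 4 (0.0145) or rescued replicate 2 (0.0383). At base 1170 of ND4 (position 11929) they gave 0.454, 0.593 and 0.520 against 1.04, 1.79, 2.07 and 1.26 (difference −1.02, limma adjusted p = 0.0942). In both mRNAs the groups did not overlap. At base 914 of ND2 (position 5383), 0.773, 1.03 and 0.805 stood against 1.12, 2.03, 2.25 and 2.23 (limma adjusted p = 0.186), again without overlap. The 4 members of complex I mRNAs that were higher in rescued cells were 3 of the 9 in ND2 and 1 of the 3 in ND4. At base 778 of ND2 (described after its values were seen) the means were nearly equal, 2.02 ± 0.316 (SD, n = 3) in rescued and 2.02 ± 0.935 (SD, n = 4) in knockout cells.

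Complex V, the ATP synthase, had 3 members in its mRNAs. The one free of overlap was base 427 of ATP6 (position 8953), where rescued libraries gave 0.520, 0.628 and 0.540 and knockout libraries 1.07, 1.56, 1.44 and 1.34 (difference −0.787, limma adjusted p = 0.186). COX3, the other complex IV mRNA with members, had 3, none without overlap. COX2 and ND4L had no member. Over all mRNAs, 45 of 56 members were lower and 11 higher, with a median level of 0.96 in rescued and 1.41 in knockout cells. At 13 of the 56 the rescued libraries were all lower and at 4 all higher, against 10.1% and 8.51% of all tested positions. The 4 higher ones were all in COX1. The count of 13 was 26 without knockout replicate 1 and 10 with libraries scaled. By codon place, 21 members lay at the first, 21 at the second and 14 at the third place, and the 3 called bases of codon 47 cover each place.

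In the tRNAs 30 members lay in 16 of the 22 genes, 24 lower and 6 higher in rescued cells, and none was called. The 9 members in tRNAs read from the light strand were all lower, with a median difference of −1.39, and the groups overlapped at each. That median was −0.62 without knockout replicate 3 and −0.50 without knockout replicate 4. The pair in TRNL1, a leucine tRNA, was higher. At base 29 (position 3258) the level was 20.1, 16.5 and 21.2 in rescued libraries and 10.53, 15.4, 6.93 and 8.93 in knockout libraries. All rescued libraries lay above all knockout libraries, though knockout replicate 2 came close to rescued replicate 2. The control libraries ran from 15.3 to 24.8 and their mean of 19.7 stood beside the rescued mean of 19.2. The difference from the knockout was 8.81 (SE 2.52, 95% interval 3.28 to 14.3) and was not called (limma adjusted p = 0.0750). It passed under 5 of 24 alternatives, among them without knockout replicate 2 (limma adjusted p = 0.0359). At bases 17 to 27 and 30 to 34 all 4 knockout libraries are listed at 0, as are rescued libraries at some of them. How far sparse reads account for the difference at base 29 was not tested.

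The second member of TRNL1 was base 56 (position 3285, described after its values were seen). Rescued libraries gave 4.08, 7.22 and 3.58 and knockout libraries 0, 2.75, 2.25 and 0.344. The rescued libraries lay above all 11 others, and the control mean was 2.03. The difference of 3.62 was not called (SE 1.15, limma adjusted p = 0.0968). In TRNK, a lysine tRNA, base 21 (also described after its values were seen) was at 3.08, 2.04 and 2.35 in rescued libraries, while knockout replicate 3 gave 2.64 and the other 3 knockout libraries are listed at 0. The groups overlapped through that replicate.

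Other tRNAs were lower in rescued cells through few libraries. At base 6 of TRND, the aspartate tRNA (position 7523), rescued libraries gave 0.825, 0.465 and 0.966 and knockout libraries 9.52, 1.85, 1.09 and 1.64. The groups did not overlap, but knockout replicate 1 was far above the rest, and the difference of −2.77 (SE 2.04, limma adjusted p = 0.542) was −0.775 without it. All 5 members in TRNV, the valine tRNA that lies between the rRNA genes, were lower, and at each of them 1 knockout library held over 50% of the summed level of the 7 libraries.

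In 12S rRNA (gene RNR1), the RNA of the small ribosomal subunit, the values could not be separated from single libraries. Each of its 23 members had an exact 0 in at least 1 of the 7 libraries, and at 20 of them a single library held over 50% of the summed level. Of the 23, 16 were lower in rescued cells, with a median difference of −2.49, which turned to 0.28 without knockout replicate 3 and to 0.56 without knockout replicate 4. Bases 7 and 8 (positions 654 and 655) show the pattern: knockout replicate 4 gave 23.1 at each, rescued replicate 2 gave 3, and the other 5 libraries are listed at 0.

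The members of 12S rRNA that ran the other way did so at or next to base 558 and at base 62, among others. At base 558 (position 1205) rescued libraries gave 9.80, 0.844 and 3.96, and all knockout, control and knockdown libraries are listed at 0 (difference 4.87, SE 1.47, limma adjusted p = 0.0874). No fold is given there because depth is unknown. At base 62 (position 709) rescued libraries gave 12.2, 5.55 and 2.56, knockout replicate 1 gave 7.14, and the other 3 knockout libraries are listed at 0 (difference 4.97, limma adjusted p = 0.259). The control libraries there lay between −2.44 and −0.877.

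**Figure D5:**
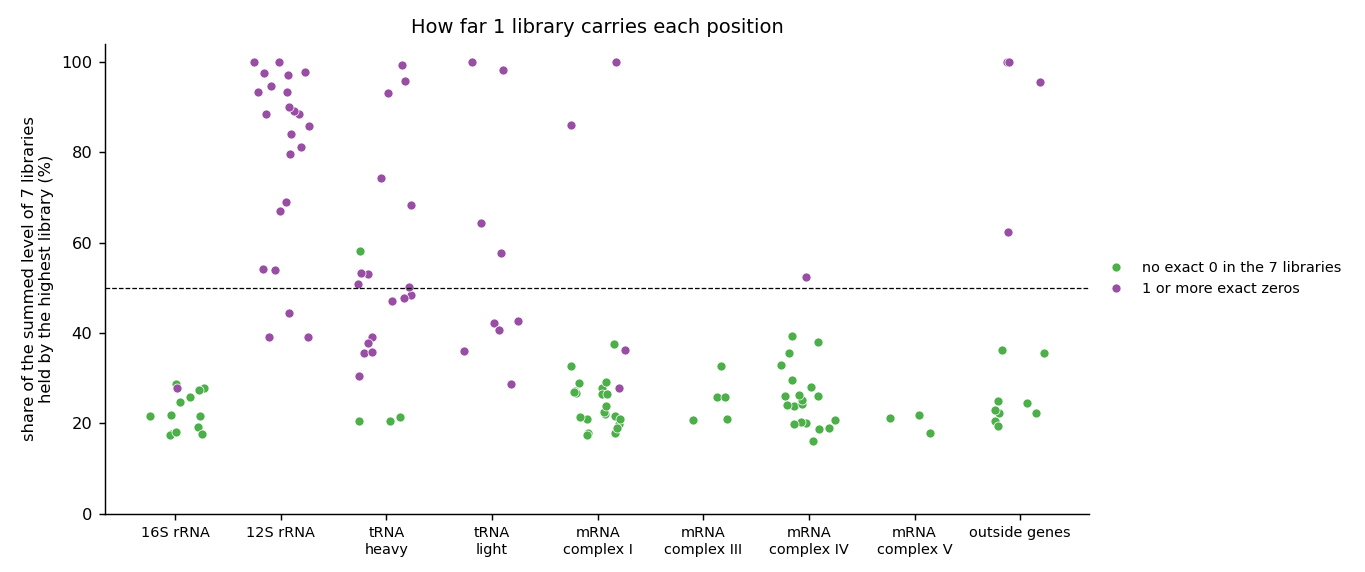
For each of the 136 positions, the percentage of the summed level of the 7 libraries held by the highest library (vertical), by RNA class (horizontal), coloured by whether any of the 7 libraries had an exact 0. The dashed line marks 50%; 20 of 23 positions in 12S rRNA lie above it, and none of the 14 in 16S rRNA does.

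Over all classes, 41 members had more than 50% of their summed level in 1 library, and at 36 of these it was a knockout library. It was knockout replicate 3 at 14, replicate 4 at 13, replicate 1 at 8 and replicate 2 at 1. None of these 41 was called. A position with most of its level in 1 library takes its direction from that library's group, so nothing is read from their differences. The 77 members with no exact 0 in any of the 7 libraries held all 9 calls. Among them 24 were higher and 53 lower, with a median difference of −0.28. How far sparse reads at a position account for the lower values was not tested.

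Outside genes there were 13 members, none called and none without overlap. The longest run of adjacent members, 6 bases at positions 305 to 310, lies in the control region, which holds the promoters of mitochondrial DNA. At position 310 rescued libraries gave 20.04, 15.02 and 4.60 and knockout libraries −7.72, 5.29, 4.11 and 7.21 (difference 10.99, SE 4.61, limma adjusted p = 0.231). At position 308 they gave 13.1, 11.3 and 2.29 against −3.88, 22.8, 20.1 and 22.3 (difference −6.44, SE 7.92, limma adjusted p = 0.667). At position 309 the difference was −1.59 (SE 6.94, limma adjusted p = 0.921). The adjacent positions 309 and 310 thus had differences of opposite sign. Rescued replicate 3 and knockout replicate 1 stood apart from their groups at positions 307 to 310.

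Members were often neighbours. Of the 136, 68 had no adjacent member and 68 lay in 29 runs of at least 2 bases, so that the 136 positions made 97 separate places. In 28 of the 29 runs the members all differed in the same direction, the exception being the run in the control region. The 9 calls came from 4 places: 1 in 16S rRNA, 2 in COX1 and 1 in CYTB. When the neighbours in each run were averaged before the fit, 2 calls were left among 130 tested places, both in COX1, and the run ending at 16S rRNA base 1397 had a difference of 3.04 (limma adjusted p = 0.0583).

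The choice of 1 as the minimum level admitted position 6096 in COX1, position 14191 in ND6 and position 8953 in ATP6 last, with means over the 7 libraries of 1.002, 1.01 and 1.01. It left out first position 7528 in TRND, position 2614 in RNR2 and position 4057 in ND1, at 0.999, 0.997 and 0.996.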

How the data were processed

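RNA from isolated mitochondria of K562 cells was treated with 0.5 M CMC before stranded total RNA library construction, per the labels. Trimmomatic, STAR, SAMtools, GRCh38 and hg38 are named in the submitters' processing notes; how altered reads were counted is not given in the sources. Each file holds 1 signed score per position for 1 CMC library, a difference per the file headers, for positions 2 to 16571 as deposited by the authors. That it is percentage points, CMC minus untreated, was inferred. Depth is unknown, and counting intervals are left out. The 6 untreated samples entered only through these differences.

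Positions were assigned to 37 genes with RefSeq coordinates (GRCh38.p14). That the scores use these coordinates was assumed, and the listed positions run slightly past the end of that sequence. No strand is given with a score, so genes were assigned by coordinate alone. Whether reads from the transcript of the opposite strand entered a score is unknown. Scores were fitted as given with limma 3.58.1 in R 4.3.3 (linear model, empirical Bayes with a mean-variance trend) over all 14 CMC libraries with 4 group means. The 188 tested positions had a mean of 1 or more over the 7 libraries compared (136) or over all 14 (149). Two-sided p-values were adjusted over the 188 by Benjamini-Hochberg (threshold 0.05). Positions with values in each library are the 10 members with the highest mean over the 7 libraries, every call, and in each gene with 2 or more members the largest difference without overlap; others are marked in the text as described after their values were seen. The members, lists and tests were chosen with earlier results of these data known. The script was tested on simulated data. Python 3.11.15, pandas 2.3.3, scipy 1.17.1 and matplotlib 3.10.9 did the rest. Alternatives are given in the closing section.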

Additional observations from a re-analysis of the deposited data

Results flagged for a closer look

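In 8 of the 25 positions named by rule, 1 knockout library lay far from the other 3 (past Dixon's 95% critical value). The usual rate of about 1 of 20 groups by chance does not apply here. The named positions are not independent, since adjacent ones share reads, and some were chosen for high means, which 1 library can raise. At positions 654, 655 and 709 the other 3 knockout libraries are listed at 0, so any value above 0 would be flagged.

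Knockout replicate 1 was the lowest in the control region, with −1.34 at position 307, −3.88 at position 308 and −5.75 at position 309, where the other 3 lay between 15.3 and 22.8. The same library was the highest at 7.14 at base 62 of 12S rRNA (position 709), at 20.6 at base 390 of COX1 (position 6293) and at 9.52 at base 6 of TRND (position 7523). Knockout replicate 4 was the highest at bases 7 and 8 of 12S rRNA (positions 654 and 655), with 23.1 at each. None of the 8 positions was called between rescued and knockout cells. Groups of 3 libraries were not examined in this way.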

How the results depend on the processing

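In place of 9 calls there were 5 when only the 149 positions whose 14-library mean was 1 or more were tested, 156 of 14928 positions with no level filter, 2 with a mean of 2 or more, 3 with a mean of 5 or more and no variance trend, 16 over positions with no exact 0, 2 with only the 7 libraries in the fit, 28 with exact zeros as missing, 2 with neighbours averaged, 31 (7 higher, 24 lower) with library weights, 31 (9 higher, 22 lower) without control and knockout replicate 1 together, and 3 (3 higher) with libraries scaled. Leaving out 1 library gave 7 to 12. Of the 9 positions, 2 were among the 156, 1 among the 2 with a mean of 2 or more, 1 among the 3, 1 among the 2 with only the 7 libraries, 5 among the 5, and all 9 among the 16, the 28 and each set of 31. The share of calls that were higher, 66.7% as reported, was 100% with libraries scaled, 22.6% with library weights and 28.6% with zeros as missing. At 16S rRNA base 1397 the difference was not called with neighbours averaged (3.04), with libraries scaled (11.95) or by the exact permutation test (7.63, p = 0.0571), and it was 7.01 to 8.42 with 1 library left out. Directions turned at uncalled positions: 307 (0.33 on a signed log2 scale, 0.168 scaled), 308 (0.25 signed log2), 309 (0.71 signed log2, 2.79 scaled, 0.119 with the replicate block, −7.10 to 1.77 with 1 library left out), 310 (−0.151 with neighbours averaged), 654 and 655 (−6.69 to 1 with 1 library left out) and 709 (−0.383 with zeros as missing). The causes were not tested. Deviations of same-numbered rescued and knockout libraries had correlations of −0.282, 6.310e-04 and −0.207, and pairs of unlike number had −0.353 to 0.529. So few pairs cannot tell whether the numbers pair the libraries. The replicate block gave 7 calls, 6 of them among the 9. Counts of members without overlap were recomputed after seeing the data.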
